A study of Homo sapiens with 12 samples.

Results

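The comparison described here sets the arrays of replicates 4 to 6 against those of replicates 1 to 3 in an RNA interference experiment on HUH6, an established human hepatoblastoma cell line. Hepatoblastoma is a liver tumour of early childhood whose cells resemble fetal hepatocytes, and HUH6 cells make albumin and alpha-fetoprotein. The labels give 2 siRNA groups, which differ only in the siRNA. The first received pooled siRNAs directed at GATA4, a transcription factor with zinc fingers, and the second received a non-targeting (NT) siRNA. Both were transfected with Lipofectamine RNAiMAX at 0.1 uM siRNA for 6 h, and RNA was extracted 72 h after transfection began. Each group has 6 samples, numbered 1 to 6 in the titles, and 1 expression beadchip array was run per sample. Replicates 4 to 6 of both siRNA groups (6 arrays) form one set, and replicates 1 to 3 of both (6 arrays) form the other, so that all 12 samples of the series are used and each set holds 3 arrays of each siRNA group. The labels give no chip, scan, day, passage or culture for any array and do not say whether replicates were separate cultures, so what differed between the sets apart from their numbers is not stated, and the spread between replicates may be technical.

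The 2 sets were first noticed on these same arrays, so the split into replicate numbers 4 to 6 and 1 to 3 was chosen by the log2 intensities described here, and genes were selected on their detection p-values. Their difference is therefore given as a description, with no test, and only the dependence of that difference on the siRNA is tested. A gene entered where a probe with 1 gene symbol had a detection p under 0.01 on at least 6 of the 12 arrays, which held for 10196 of 20045 named genes. Levels are log2 intensities after background correction and quantile normalisation. A difference is the mean log2 level of replicates 4 to 6 minus that of replicates 1 to 3 with the siRNA group in the fit, so that 1 unit is a 2-fold difference. A gene is called higher or lower where its limma adjusted p over all genes is under 0.05. For the sets this call only sorts genes by their difference relative to the spread between arrays. Counts of calls below describe the arrays on which the sets were found and are no test.

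Several programmes that cells adjust to their surroundings recur below. YAP and TAZ are coactivators that bind TEAD transcription factors, and serum response factor (SRF) with its MRTF coactivators reads the pool of free actin; cell density, attachment and stretch act on both, and their targets build the contractile cytoskeleton. ATF4 is a transcription factor translated when amino acids run short or the endoplasmic reticulum is stressed, and it turns on amino acid import, transfer RNA charging and the stress factors DDIT3 and ATF3. p53 turns on genes of cell cycle arrest and apoptosis. Many genes of mitosis have promoters with CCAAT boxes and a cell cycle homology region (CHR), and are turned on late in the cycle.

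The sets separated on every array. The first principal component of the 10196 genes held 57.3% of the variance and ran 15.34 to 17.56 in replicates 4 to 6, against -18.22 to -13.89 in replicates 1 to 3. The second component, 9.66% of the variance, separated the siRNA groups. Summed over genes, the set accounted for 57% of the variance, the siRNA for 9.57%, their combination for 4.38% and the spread between replicates for 29%. Taken gene by gene, the median share was 34.7% for the set and 39.5% for the spread between replicates.

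A total of 2637 genes (25.9% of those tested) were called higher in replicates 4 to 6 and 2570 (25.2%) were called lower. Of these, 45 (0.441%) were at least 2-fold higher and 115 (1.13%) at least 2-fold lower. The differences were mostly small: the median size of a difference over all genes was 0.17, and the median difference was 0.01. The median SD of a gene among the 3 arrays of a siRNA group and set was 0.0927 with GATA4 siRNA and 0.0839 with NT siRNA in replicates 4 to 6, against 0.104 and 0.0908 in replicates 1 to 3. All 6 arrays of replicates 4 to 6 lay above all 6 of replicates 1 to 3 for 1169 genes (11.5%), and below all of them for 1454 (14.3%).

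The difference was also taken in each siRNA group alone, and these share no samples. With GATA4 siRNA alone, 1714 genes (16.8%) were called higher and 1990 (19.5%) lower. With NT siRNA alone the counts were 1946 (19.1%) higher and 1955 (19.2%) lower. In both groups 2698 genes were called, 2696 of them in the same direction, which is 72.8% of the GATA4 siRNA calls and 69.1% of the NT siRNA calls. Across the 10196 genes, which are not independent of each other, the differences in the 2 siRNA groups correlated with Pearson's r of 0.859 and Spearman's rho of 0.788. Over all genes, 80.1% had the same sign in both. The sets lay clear of each other within both siRNA groups in 1529 genes (15%) higher in replicates 4 to 6 and 1735 (17%) lower.

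**Figure D1:**
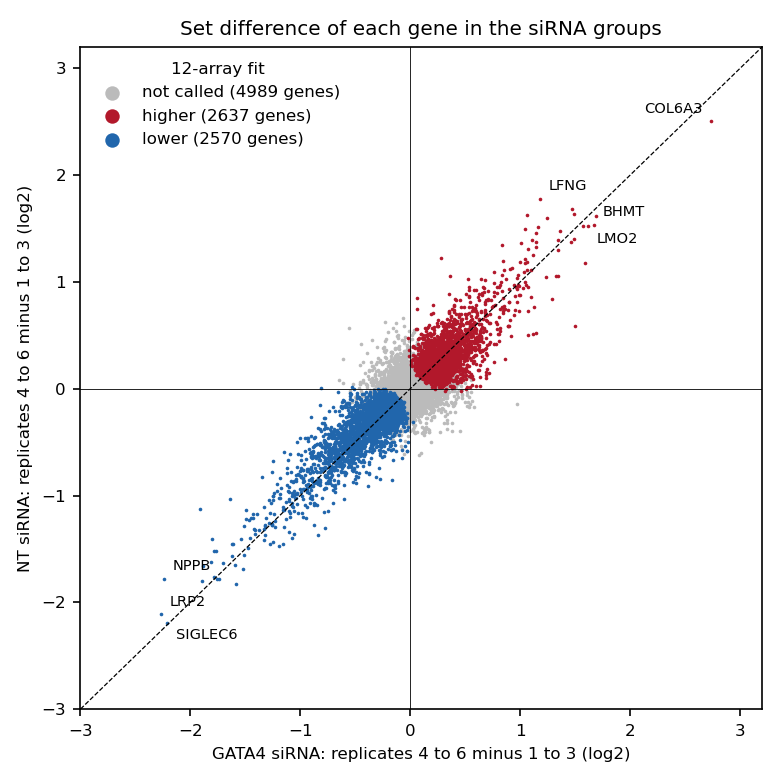
Each point is 1 of 10196 genes, with its difference between the sets (replicates 4 to 6 minus replicates 1 to 3, log2) among GATA4 siRNA arrays on the x axis and among NT siRNA arrays on the y axis; the dashed line marks equal differences. Genes called higher (2637) and lower (2570) on all 12 arrays lie along that line, with COL6A3 at 2.74 and 2.51 and LRP2 at -2.27 and -2.11.

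Array measures did not separate the sets. Detected probes numbered 16206 to 16617 of 48106 in replicates 4 to 6, against 16067 to 16804 in replicates 1 to 3. The median raw signal was 119.7 to 128.1 in replicates 4 to 6, against 117.4 to 123.1 in replicates 1 to 3. The silenced gene did not separate them either. The GATA4 probe was not above background in either set after GATA4 siRNA, averaging 4.49 ± 0.045 in replicates 4 to 6 and 4.50 ± 0.12 in replicates 1 to 3 on the log2 scale (SD, n = 3 each). With NT siRNA it was detected on all 6 arrays and averaged 5.74 ± 0.45 in replicates 4 to 6 and 5.64 ± 0.26 in replicates 1 to 3 (SD, n = 3 each).

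The largest difference of all was in COL6A3, which encodes the alpha 3 chain of the beaded-filament collagen VI. It read 9.21, 9.02 and 9.12 with GATA4 siRNA and 8.93, 8.95 and 9.12 with NT siRNA in replicates 4 to 6, against 6.61, 6.23 and 6.31 with GATA4 siRNA and 6.57, 6.57 and 6.34 with NT siRNA in replicates 1 to 3. The lowest array of replicates 4 to 6 was far above the highest of replicates 1 to 3, and the sets lay 2.62 apart (SE 0.076), or 6.15-fold. A second COL6A3 probe differed by 2.84. FBLN2, the matrix glycoprotein fibulin-2, read 10.34, 10.44 and 10.60 in replicates 4 to 6, against 8.74, 8.88 and 9.18 in replicates 1 to 3 (lowest, median and highest of 6 arrays), a difference of 1.55 (SE 0.062). LMO2, a transcriptional adaptor known from blood formation, read 8.78, 8.89 and 9.01 in replicates 4 to 6, against 7.27, 7.29 and 7.46 in replicates 1 to 3. ACKR3, a scavenging receptor for the chemokine CXCL12, read 7.81, 8.16 and 8.36 in replicates 4 to 6, against 6.42, 6.55 and 6.87 in replicates 1 to 3. In these 4 genes no array of one set reached the range of the other. All 6 arrays of replicates 4 to 6 lay above the other set in 11.5% of the genes tested. The choice of these genes, with sets clear of each other within both siRNA groups, made such separation likely.

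Liver enzymes and lipid genes were also among the 20 largest higher genes. BHMT, which remethylates homocysteine from betaine in hepatocytes, read 7.52, 7.83 and 8.21 in replicates 4 to 6, against 5.28, 6.45 and 6.61 in replicates 1 to 3, and was below the detection limit on 1 array of replicates 1 to 3. APOA5, an apolipoprotein that lowers plasma triglyceride, read 8.05, 8.14 and 8.44 in replicates 4 to 6, against 6.43, 6.81 and 7.15 in replicates 1 to 3. CYP1A2, a cytochrome P450 of drug breakdown, read 6.37, 6.89 and 7.08 in replicates 4 to 6, against 5.39, 5.48 and 5.63 in replicates 1 to 3 and was detected on all 6 arrays of replicates 4 to 6, against 3 of replicates 1 to 3. CD36, a fatty acid and scavenger receptor, read 5.85, 6.19 and 6.54 in replicates 4 to 6, against 4.65, 4.82 and 5.05 in replicates 1 to 3 and was not detected in any array of replicates 1 to 3, so that it was at least 1.65-fold higher. Bounds of this kind set the mean of the set where the gene was detected against the lowest detected signals of the other arrays. HDGFL3, a relative of hepatoma-derived growth factor, was at least 2.15-fold higher in the same sense, MACROD1, which removes ADP-ribose from proteins, at least 2.19-fold and LY6G6D at least 1.68-fold.

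The rest of these 20 were of several kinds. The Wnt ligand gene WNT8A differed by 1.42, the Notch-modifying glycosyltransferase LFNG by 1.48, the zinc finger transcription factor OSR1 by 1.34 and the phospholipase PLCG2 by 1.27. SLC30A3, a zinc transporter, differed by 1.58, PITPNC1, a phosphatidylinositol transfer protein, by 1.37, PLPPR1 by 1.34, NLRP7 by 1.44 and SNORA63, a small nucleolar RNA, by 1.26. All of these lay clear of the other set within both siRNA groups, which the choice of these genes required.

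Among the 20 largest lower genes, SIGLEC6, a sialic acid binding lectin, read 4.61, 4.86 and 5.17 in replicates 4 to 6, against 6.95, 7.06 and 7.21 in replicates 1 to 3. It was detected on no array of replicates 4 to 6 and on all 6 of replicates 1 to 3, and was at least 3.15-fold lower. LRP2, the endocytic receptor megalin, read 8.24, 8.13 and 8.15 with GATA4 siRNA and 8.20, 8.34 and 8.35 with NT siRNA in replicates 4 to 6, against 10.34, 10.35 and 10.63 with GATA4 siRNA and 10.41, 10.30 and 10.53 with NT siRNA in replicates 1 to 3. The sets of LRP2 values lay -2.19 apart (SE 0.059), or 4.57-fold lower in replicates 4 to 6. NPPB, the B-type natriuretic peptide known as a stretch-responsive heart hormone, read 8.24, 8.82 and 8.92 in replicates 4 to 6, against 10.55, 10.70 and 11.03 in replicates 1 to 3. Its highest array in replicates 4 to 6 was well under its lowest in replicates 1 to 3.

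Several of these genes act at the cell surface, at caveolae or in the complement system. C4BPB, the beta chain of the complement inhibitor C4b-binding protein, read 8.16, 8.35 and 8.53 in replicates 4 to 6, against 10.10, 10.20 and 10.36 in replicates 1 to 3. CFI, the protease that cuts C3b and C4b, read 6.00, 6.47 and 7.00 in replicates 4 to 6, against 8.01, 8.27 and 8.70 in replicates 1 to 3. ANXA1, a phospholipid-binding annexin of the cell cortex, read 9.17, 9.54 and 9.67 in replicates 4 to 6, against 10.91, 11.13 and 11.34 in replicates 1 to 3. CAVIN1, which shapes caveolae, read 9.96, 10.15 and 10.24 in replicates 4 to 6, against 11.55, 11.71 and 11.83 in replicates 1 to 3, and THBS1, the matrix protein thrombospondin-1, read 8.80, 8.86 and 9.07 in replicates 4 to 6, against 10.27, 10.45 and 10.57 in replicates 1 to 3. None of these 5 genes had an array of replicates 4 to 6 inside the range of replicates 1 to 3. Their choice, by the same rule as the higher genes, made this likely. All 6 arrays of replicates 4 to 6 lay below the other set in 14.3% of the genes tested.

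Enzymes and carriers came next. HSD3B1, a steroid dehydrogenase, differed by -1.77 (SE 0.062), SLC10A1, the bile acid importer NTCP of hepatocytes, by -1.71 (SE 0.1) and AKR1B10, an aldo-keto reductase, by -1.77 (SE 0.095). INMT, a methyltransferase, and FLRT3, a membrane adhesion protein, were detected on no array of replicates 4 to 6 and were at least 1.98-fold and at least 2.09-fold lower. The small heat shock protein HSPB8 differed by -1.53 and the endocytic adaptor EPN1 by -1.67. The remaining 5 of these 20 were ELAPOR1, OCIAD2, SCHIP1, S100A3 and DENND3, with differences of -1.77, -1.72, -1.62, -1.60 and -1.54. ELAPOR1 and OCIAD2 were each detected on 2 of 6 arrays of replicates 4 to 6 and on all 6 of replicates 1 to 3.

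**Figure D2:**
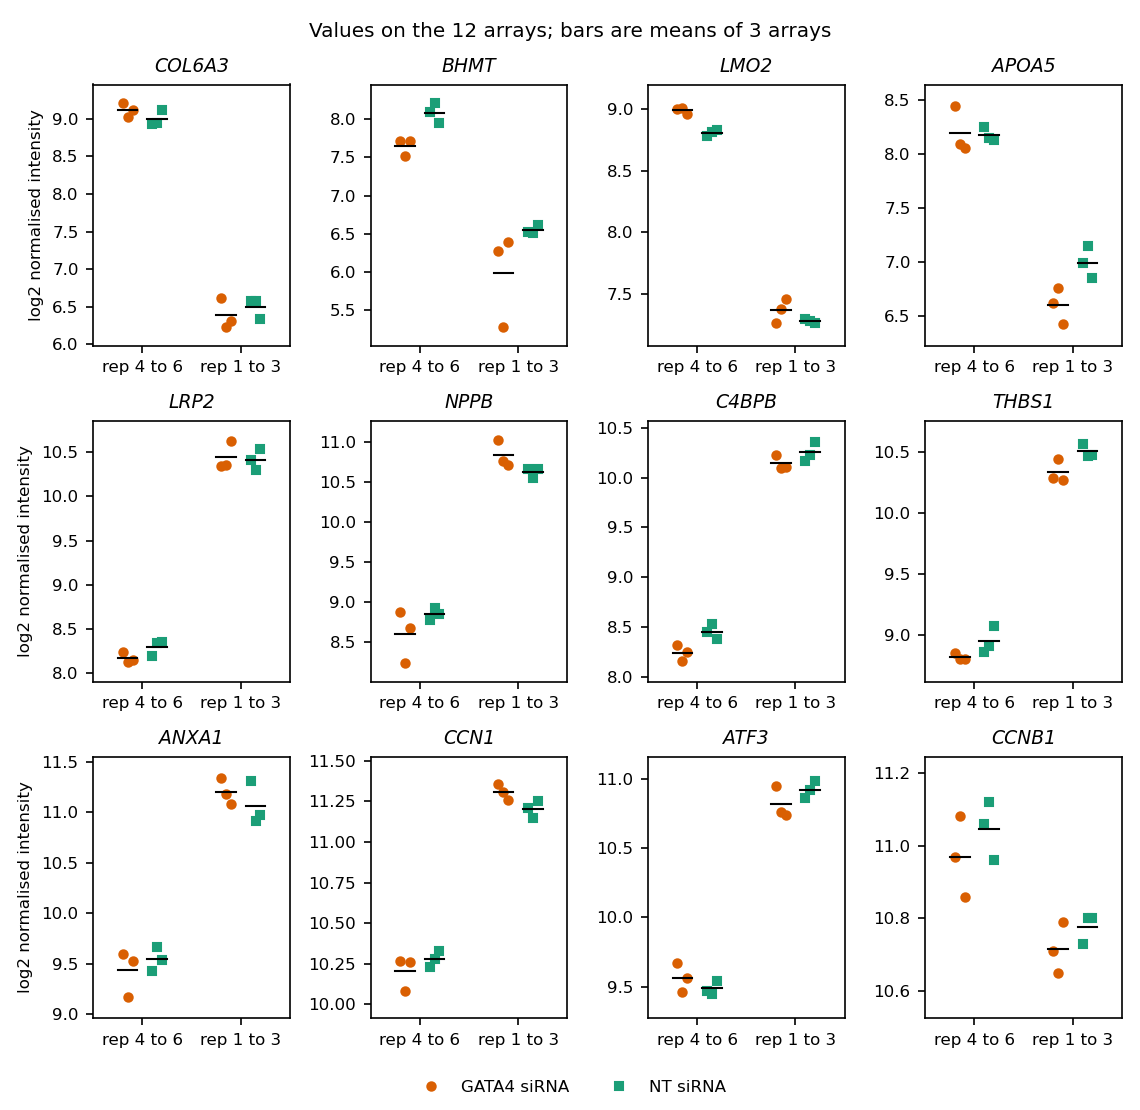
Log2 normalised intensity of 12 genes on each array, with replicates 4 to 6 left of replicates 1 to 3 in every panel, GATA4 siRNA as circles and NT siRNA as squares; bars are means of 3 arrays and each panel has its own axis. COL6A3 lay at 8.93 to 9.21 in replicates 4 to 6, against 6.23 to 6.61 in replicates 1 to 3 and LRP2 at 8.13 to 8.35 in replicates 4 to 6, against 10.30 to 10.63 in replicates 1 to 3.

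Genes of the actin cytoskeleton were mostly lower in replicates 4 to 6. Counts for lists are to be set beside the 25.9% of all tested genes called higher, the 25.2% called lower and the median difference of 0.01 over all genes. Of 35 tested genes for actin binding and focal adhesion, 3 were called higher and 27 lower, with a median difference of -0.31. Among these, ANXA2, an actin and membrane linker, differed by -0.56 and S100A6, a calcium-binding partner of annexins, by -0.95. The giant scaffold AHNAK differed by -0.81, and the membrane linker EZR (ezrin) by -0.64. CAV2, a caveolin, was higher by 0.55 while CAVIN1 differed by -1.59. Other CAV2 probes differed by 0.37 and -0.025. PDLIM7 was higher by 0.31.

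Of 21 tested contractile and SRF/MRTF target genes, 1 was called higher and 16 lower (median -0.26). TAGLN, which encodes the actin-bundling protein SM22, read 11.44, 11.53 and 11.73 in replicates 4 to 6, against 12.05, 12.32 and 12.54 in replicates 1 to 3. ACTA2, smooth muscle alpha-actin, read 11.79, 11.83 and 11.97 in replicates 4 to 6, against 12.38, 12.40 and 12.52 in replicates 1 to 3. TPM1, a tropomyosin, differed by -0.58, and CRYAB, a small heat shock protein that binds desmin and actin, by -1.06. MYH11, the smooth muscle myosin heavy chain, went the other way, at 6.18 to 7.29 in replicates 4 to 6, against 5.06 to 6.18 in replicates 1 to 3. SRF itself differed by 0.018 and was not called.

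Targets of YAP and TEAD had one of the lowest medians of the longer lists. Of 20 tested, 2 were called higher and 17 lower, with a median of -0.52. CCN1, a secreted matrix-associated protein known as CYR61, read 10.08, 10.26 and 10.33 in replicates 4 to 6, against 11.15, 11.26 and 11.36 in replicates 1 to 3. CCN2, the connective tissue growth factor, read 5.58, 5.99 and 6.39 in replicates 4 to 6, against 6.36, 6.70 and 6.87 in replicates 1 to 3, a difference of -0.63, while another CCN2 probe differed by -0.18 at an unadjusted p above 0.05. ANKRD1, a nuclear ankyrin repeat protein, read 7.81, 8.11 and 8.35 in replicates 4 to 6, against 8.69, 8.88 and 9.06 in replicates 1 to 3. The receptor tyrosine kinase AXL read 6.42, 6.57 and 6.86 in replicates 4 to 6, against 7.46, 7.74 and 8.06 in replicates 1 to 3, and MYOF, a membrane repair protein, differed by -1.03. The members called higher were STMN1, a microtubule destabiliser (0.54), and FJX1 (0.42). On single arrays the median member, centred on gene means, ran -0.31 to -0.22 in replicates 4 to 6, against 0.18 to 0.34 in replicates 1 to 3. The sets of array medians did not overlap, as in most of the longer lists. Among those were heat shock genes, with a median difference of only -0.029.

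The upstream sequences of CCN2 and ANKRD1 are shown because both are described TEAD targets. They come from RefSeq on GRCh38.p14, run 5′ to 3′ on the gene's strand, and carry the letters GGAATG, the core of the TEAD motif, in capitals. The CCN2 stretch is chr6:131951443-131951562 (minus strand), from 190 to 71 bases before the annotated start, with matches beginning 169, 104 and 95 bases before it. The ANKRD1 stretch is chr10:90921198-90921317 (minus strand), from 230 to 111 bases before the start, with matches at 220 and 128 bases.
CCN2: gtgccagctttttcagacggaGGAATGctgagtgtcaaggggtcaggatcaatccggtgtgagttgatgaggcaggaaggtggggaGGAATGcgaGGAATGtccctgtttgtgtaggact
ANKRD1: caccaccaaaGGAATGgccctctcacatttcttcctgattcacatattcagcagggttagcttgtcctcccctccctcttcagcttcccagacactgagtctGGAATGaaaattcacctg
Searched on both strands in the 250 bases before each start, these letters occurred in 11.9% of 35116 promoters in the RefSeq table and in 10.0% of the 12094 promoters found for tested genes. Of the 20 tested YAP and TEAD targets, 14 had an entry, with 19 promoters, of which 7 (36.8%) held the letters. The list was drawn from described targets, so a high share in it was likely beforehand. Among promoters of all genes called lower the share was 11.4%, and of those called higher 10.0%, near that of tested genes. A match describes the sequence and is neither a binding site nor a cause.

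Extracellular matrix genes split. Of 19 tested interstitial matrix genes, 8 were called higher and 8 lower (median -0.15). The median was unequal in the siRNA groups, at -0.35 with GATA4 siRNA and -0.038 with NT siRNA. On single NT siRNA arrays the list's median ran 0.025 to 0.11 in replicates 4 to 6, against -0.0017 to 0.086 in replicates 1 to 3. Beside COL6A3 and FBLN2, the small proteoglycan BGN (biglycan) was higher by 0.77 and the large one VCAN (versican) by 0.70. THBS1, the fibulin relative EFEMP1 (at least 1.44-fold, detected on no array of replicates 4 to 6), the fibrillar collagen COL5A2 (-1.26) and the matricellular protein SPARC (-1.13) were lower. SPARC read 7.51, 7.75 and 7.97 in replicates 4 to 6, against 8.74, 8.88 and 8.96 in replicates 1 to 3. FN1, fibronectin, differed by -0.44. Among 14 tested basement membrane genes, 3 were called higher and 9 lower. The collagen IV chains COL4A1 and COL4A2, which share a promoter region, differed by -0.65 and -0.77, and the laminin chains LAMB2 and LAMA1 by -0.72 and -0.54. The syndecan SDC1 was higher by 0.39.

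Matrix receptors and proteases followed the lower side. Of 13 tested integrin genes, 2 were called higher and 9 lower. ITGA3, an alpha chain of laminin receptors, read 6.36, 6.78 and 6.86 in replicates 4 to 6, against 7.63, 7.98 and 8.08 in replicates 1 to 3, and ITGA5, the alpha chain of the fibronectin receptor, read 7.24, 7.53 and 7.59 in replicates 4 to 6, against 8.34, 8.54 and 8.60 in replicates 1 to 3. ITGA6, the alpha chain of other laminin receptors, went the other way, with 5.91, 6.55 and 6.88 in replicates 4 to 6, against 5.41, 5.91 and 6.20 in replicates 1 to 3. The sets did not overlap in ITGA3 or ITGA5 and overlapped in ITGA6. Of 17 tested proteases and inhibitors, 2 were higher and 9 lower, the lowest being the urokinase receptor PLAUR (-1.08) and the protease ADAMTS9 (-1.08). Of 12 tested mesenchymal genes, 4 were higher and 6 lower, with a median of -0.22 with GATA4 siRNA and -0.032 with NT siRNA. Among them were the growth factor receptor PDGFRA at 0.81, the hyaluronan receptor CD44 at -0.69 and VIM (vimentin) at 0.014, not called.

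Epithelial junction genes leaned lower as well, with 3 called higher and 15 lower of 26 tested (median -0.16). CLDN2, a claudin that forms cation channels in tight junctions, was detected on no array of replicates 4 to 6 and was at least 1.48-fold lower. CLDN6, a claudin of fetal tissue, differed by -0.78, CGN (cingulin) by -0.76 and the adherens junction cadherin CDH1 by -0.50. CLDN3 (0.032), PKP2 (-0.038) and EPCAM (-0.044) were not called. The splicing regulator ESRP1 was higher by 0.30.

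Targets of ATF4 were lower almost throughout. None of the 31 tested was called higher and 29 were called lower, with a median of -0.37. The exceptions were ALDH1L2 (-0.14) and XPOT (0.0024), neither called. ATF3, a stress-induced repressor, read 9.45, 9.51 and 9.67 in replicates 4 to 6, against 10.74, 10.89 and 10.98 in replicates 1 to 3. DDIT3, the stress factor CHOP, read 7.43, 7.50 and 7.71 in replicates 4 to 6, against 8.51, 8.60 and 8.96 in replicates 1 to 3, and TRIB3, a pseudokinase that dampens ATF4, read 8.23, 8.31 and 8.49 in replicates 4 to 6, against 9.32, 9.48 and 9.58 in replicates 1 to 3. PPP1R15A, which restores translation by dephosphorylating eIF2 alpha, differed by -0.86. ASNS, asparagine synthetase, differed by -0.54, the amino acid transporter chain SLC3A2 by -0.76 and ATF4 itself by -0.16. The list's array medians ran -0.29 to -0.11 in replicates 4 to 6, against 0.14 to 0.26 in replicates 1 to 3.

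Upstream sequences of ASNS and ATF3 are given because both genes are described ATF4 targets. Capitals mark TGATGNAA, a form of the amino acid response element (CARE). The ASNS stretch is chr7:97872439-97872518 (minus strand), from 110 to 31 bases before the start, with the match beginning 68 bases before it. The ATF3 stretch is chr1:212565177-212565256 (plus strand), from 230 to 151 bases before one of its annotated starts, with the match at 191 bases.
ASNS: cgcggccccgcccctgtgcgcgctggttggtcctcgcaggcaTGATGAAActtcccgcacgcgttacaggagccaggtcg
ATF3: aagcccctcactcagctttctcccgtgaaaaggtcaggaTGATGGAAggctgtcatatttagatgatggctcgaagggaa
On both strands of the 250 bases before each start, these letters occurred in 3.14% of 35116 promoters and in 1.79% of those of tested genes. Of the 31 tested ATF4 targets, 27 had an entry, with 40 promoters, of which 5 (12.5%) held the letters. This list too was drawn from described targets. Among promoters of all genes called lower the share was 2.25%, and of those called higher 1.6%.

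Other stress programmes moved with fewer members. Of 20 tested unfolded protein response genes, 2 were called higher and 12 lower. DNAJB9, an endoplasmic reticulum co-chaperone, differed by -0.95, HSPA5, the main endoplasmic reticulum chaperone, by -0.32, XBP1 by 0.12 and the disulfide isomerase PDIA6 by 0.31. Of 21 heat shock genes, 5 were higher and 9 lower, with the small heat shock proteins HSPB8 and CRYAB lowest and the cochaperone FKBP4 highest (0.51). The abundant cytosolic chaperones HSPA8 and HSP90AB1 differed by -0.029 and 0.028. Of 28 NRF2 and antioxidant genes, 5 were higher and 13 lower. AKR1B10 and the transporter ABCC3 (-1.10) were lowest, NQO1, a standard NRF2 target, differed by 0.036, and GPX3 (0.65) and CAT, catalase (0.44), were higher.

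Of 23 tested p53 targets, 1 was called higher and 17 lower (median -0.35). CDKN1A, the cell cycle inhibitor p21, read 11.42, 11.68 and 11.94 in replicates 4 to 6, against 12.29, 12.38 and 12.69 in replicates 1 to 3. MDM2, the ligase that destroys p53, read 5.89, 6.19 and 6.64 in replicates 4 to 6, against 6.40, 6.63 and 7.23 in replicates 1 to 3. PLK2, a polo-like kinase detected on no array of replicates 4 to 6, was at least 1.48-fold lower, and GDF15, a stress cytokine, differed by -0.76. SESN1 was called higher by 0.15, a call lost with median scaling, without the detection filter and without the siRNA term, among other settings. BAX, a mediator of apoptosis, differed by 0.00029 and was not called.

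Of 26 tested immediate early genes, 2 were called higher and 17 lower (median -0.29). The phosphatases DUSP1 and DUSP5 differed by -1.01 and -1.03, and FOS, a subunit of the AP-1 factor, by -0.52. EGR1, another serum-induced factor, was higher by 0.24, and MYC by 0.27. Lysosome and autophagy genes had 4 called higher and 20 lower of 31 (median -0.25). The autophagosome proteins GABARAPL1 and MAP1LC3B differed by -0.97 and -0.54, the cholesterol exporter NPC1 by -0.54, and the protease CTSF, higher, by 1.14.

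Cell cycle genes leaned higher in replicates 4 to 6, by small amounts. Of 50 tested genes of G2 and mitosis, 35 were called higher and none lower, and of 42 genes of S phase, 23 were higher and 2 lower. The medians were 0.18 and 0.17. NEK2, a centrosomal kinase, read 10.60, 10.67 and 10.78 in replicates 4 to 6, against 10.03, 10.06 and 10.18 in replicates 1 to 3. CENPA, the histone that marks centromeres, read 9.45, 9.54 and 9.71 in replicates 4 to 6, against 8.86, 9.01 and 9.04 in replicates 1 to 3. CCNB1, cyclin B1, read 10.86, 11.02 and 11.12 in replicates 4 to 6, against 10.65, 10.76 and 10.80 in replicates 1 to 3, and CDK1, its kinase, differed by 0.25. MKI67, the proliferation antigen Ki-67, differed by 0.17 and was not called.

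In S phase the replication fork protein GINS4 (0.54), the primase PRIM1 (0.49) and the helicase subunit MCM2 (0.37) were higher, while TK1, thymidine kinase (-0.27), and ORC6 (-0.27) were lower. Another ORC6 probe differed by 0.069. The array medians of the G2 and mitosis genes ran 0.088 to 0.12 in replicates 4 to 6, against -0.13 to -0.038 in replicates 1 to 3, and those of the S phase genes 0.055 to 0.12 in replicates 4 to 6, against -0.10 to -0.053 in replicates 1 to 3. Of 14 tested replication-dependent histone genes, near copies of each other whose probes may share signal, 7 were higher and 3 lower. H2BC9 (0.97) and H2BC5 (-0.84) were their extremes.

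Upstream sequences of CCNB1, CCNB2 and CDC20 show the CCAAT boxes (CCAAT) and CHR letters (TTTGAA or TTTAAA) in capitals. They are shown because the pair of elements is known from promoters of mitotic genes, of which 35 of 50 were called higher. The stretches are chr5:69167030-69167149, chr15:59105026-59105145 and chr1:43358861-43358980, all on the plus strand and from 120 to 1 bases before the start.
CCNB1: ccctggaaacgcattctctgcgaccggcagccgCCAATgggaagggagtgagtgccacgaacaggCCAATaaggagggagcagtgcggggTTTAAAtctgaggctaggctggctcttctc
CCNB2: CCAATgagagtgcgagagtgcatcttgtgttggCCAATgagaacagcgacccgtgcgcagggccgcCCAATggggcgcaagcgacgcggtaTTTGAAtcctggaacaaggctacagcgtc
CDC20: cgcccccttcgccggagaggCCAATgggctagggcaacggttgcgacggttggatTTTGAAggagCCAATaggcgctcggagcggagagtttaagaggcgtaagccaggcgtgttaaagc
CCNB1 has CCAAT at 87 and 55 bases and CHR letters at 30 bases before the start. CCNB2 has CCAAT at 120, 87 and 54 bases and CHR letters at 29 bases. CDC20 has CCAAT at 100 and 55 bases and CHR letters at 65 bases. Searched on both strands in 250 bases, both elements stood together in 7.64% of 35116 promoters, in 5.99% of those of tested genes and in 60.4% of the 48 promoters found for the list. By gene, 27 of 41 with an entry held both. The pair is known from such genes, so a high share in the list was likely beforehand. Among promoters of all genes called higher both stood together in 6.9%, and of those called lower in 5.08%. The differences of the 3 genes were 0.26 (SE 0.045), 0.32 (SE 0.046) and 0.12 (SE 0.037).

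Genes for making proteins and for respiration also leaned higher. Of 67 tested mitochondrial ribosomal protein genes, 40 were called higher and 4 lower (median 0.19). Of 67 cytosolic ones the counts were 32 and 3 (median 0.11), and of 67 subunits of oxidative phosphorylation, 34 and 0 (median 0.11). MRPS34 and MRPL28 differed by 0.46 and 0.45, RPL21 by 0.44, and NDUFB6, a complex I subunit, by 0.51. MRPL52 differed by -0.34, and RPS16 differed by -0.21. Ribosomal protein genes have many processed pseudogenes, so their probes may carry shared signal.

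Of 51 spliceosome and hnRNP genes, 22 were higher and 1 lower, with HNRNPA3 at 0.55 and SRSF7, a splicing factor, at 0.52. The lower one, HNRNPDL (-0.47), had another probe at 0.18, so its direction is uncertain. Of 33 ribosome biogenesis genes, 14 were higher and 2 lower, among them WDR12 (0.42) and the nucleolar methylase FBL (0.33). Proteasome genes showed no such lean, with 4 higher and 5 lower of 34 (median 0.019). Small noncoding RNAs had 18 higher and 5 lower of 34 (median 0.29), including SCARNA22 (1.11), SNORA12 (1.09) and SNORD3A (0.76), and on the lower side SNORA61 (-0.59) and RN7SL1 (-0.53). Probes for such RNAs may also read host transcripts or near-identical copies.

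Secreted liver proteins divided by family. Of 17 tested coagulation genes, 10 were called higher and 3 lower (median 0.29). SERPINC1, antithrombin, read 8.81, 8.91 and 9.05 in replicates 4 to 6, against 7.58, 7.72 and 7.92 in replicates 1 to 3, and F2, prothrombin, read 7.42, 8.01 and 8.22 in replicates 4 to 6, against 7.01, 7.44 and 8.03 in replicates 1 to 3. The cofactors PROS1 and F5 differed by -0.40 and -0.38. Of 14 genes of lipoproteins, 8 were higher and 4 lower, with APOM (0.95), APOC3 (0.85) and the lipid loader MTTP (0.77) higher beside APOA5, and APOA4 (-0.80) and LCAT (-0.83) lower. Of 10 complement genes, 3 were higher and 5 lower. The lower ones were C4BPB, CFI, C4BPA (-1.27), C5 (-0.71) and C1S (-0.65), and the higher ones the inhibitors SERPING1 (0.42) and CD59 (0.34) and factor B, CFB (0.19). Of 22 carriers, 8 were higher and 5 lower, with VTN, vitronectin, at -1.22 and HPX, hemopexin, at -0.98.

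**Figure D3:**
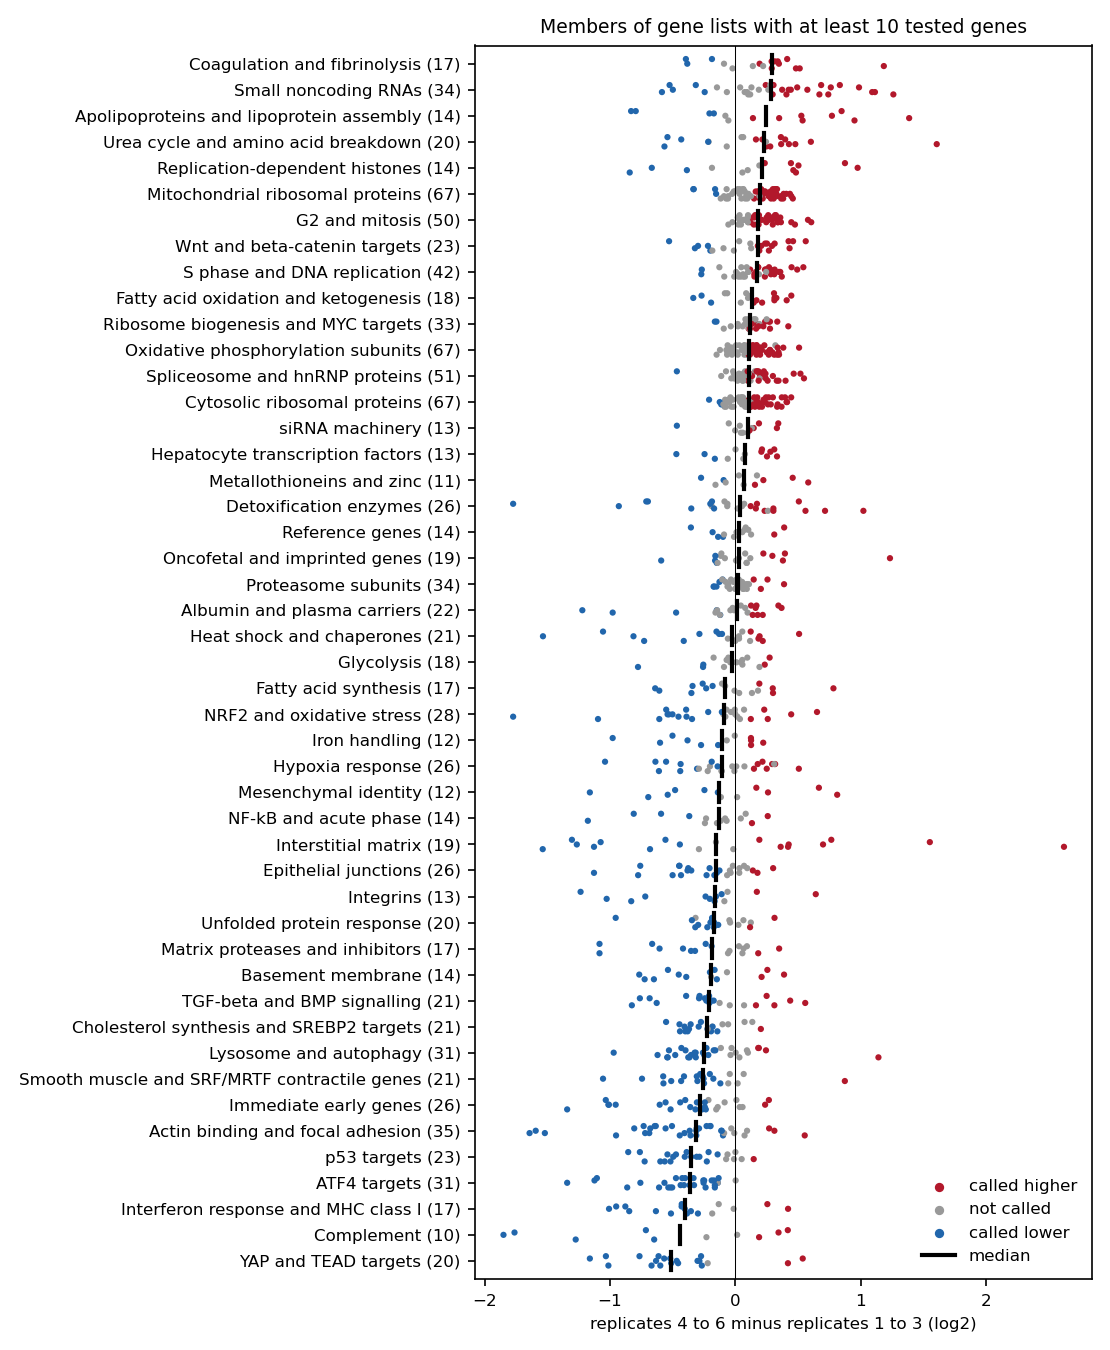
Differences between the sets (replicates 4 to 6 minus replicates 1 to 3, log2) of every tested member of the lists with at least 10 tested genes, ordered by median; points are genes, coloured by call, black bars are medians, and the number of genes stands after each list name. YAP and TEAD targets (-0.52) lie at the low end and coagulation genes (0.29) near the high end.

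Metabolic lists went both ways. Of 20 genes of the urea cycle and amino acid breakdown, 11 were higher and 4 lower, with ASS1 of the urea cycle at 0.60 and CTH, which makes cysteine and is also an ATF4 target, at -0.57. Fatty acid oxidation had 9 higher and 3 lower of 18, with EHHADH at 0.45 and ACADS at 0.41. Cholesterol synthesis had 1 higher and 14 lower of 21 (median -0.22). HMGCS1, an early enzyme of the pathway, read 10.65, 10.72 and 10.83 in replicates 4 to 6, against 11.06, 11.12 and 11.23 in replicates 1 to 3, and INSIG1, which holds back sterol sensing, differed by -0.41. EBP was the member called higher (0.20). Fatty acid synthesis had 4 higher and 7 lower of 17, with the elongase ELOVL6 at 0.78 and ACSS2, which makes acetyl-CoA from acetate, at -0.64. Detoxification enzymes had 10 higher and 8 lower of 26, ranging from AKR1B10 to ALDH3A2 (1.02). CYP3A5 and CYP3A7, close paralogs, differed by -0.93 and -0.71. Glycolysis had 2 higher and 3 lower of 18, with PFKP at -0.78.

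**Figure D4:**
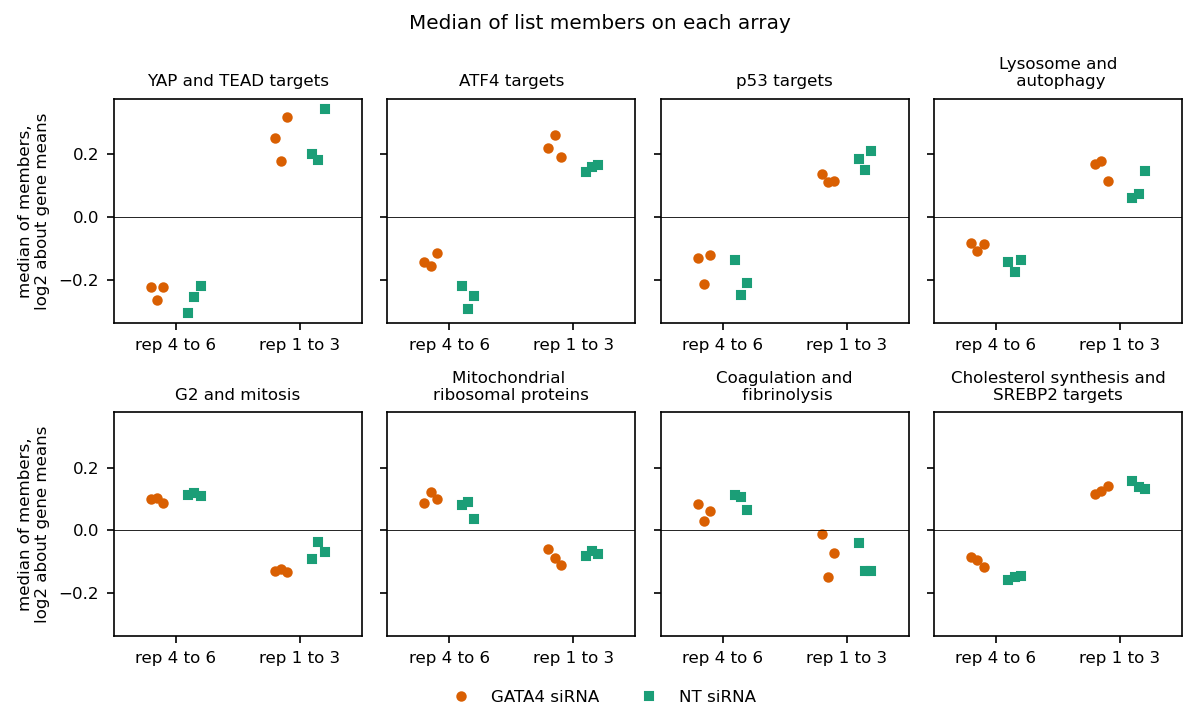
Median of the members of 8 lists on each array, after each gene was centred on its mean over the 12 arrays (log2), with replicates 4 to 6 left of replicates 1 to 3, GATA4 siRNA as circles and NT siRNA as squares. The array medians of ATF4 targets ran -0.29 to -0.11 in replicates 4 to 6, against 0.14 to 0.26 in replicates 1 to 3, and those of mitochondrial ribosomal proteins 0.036 to 0.12 in replicates 4 to 6, against -0.11 to -0.06 in replicates 1 to 3.

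Developmental pathways were mixed. HUH6 cells are known for an activating mutation of beta-catenin. Of 23 tested Wnt targets, 12 were called higher and 5 lower (median 0.18). The median was 0.075 with GATA4 siRNA and 0.21 with NT siRNA. APCDD1 (0.56), NKD1 (0.46), NOTUM (0.43) and SP5 (0.42), feedback genes of the pathway, were higher. NKD2, another feedback gene (-0.32), and CCND1, cyclin D1 (-0.30), were lower, and CTNNB1, beta-catenin itself, differed by 0.12 and was not called. CTNNB1 differed by -0.14 with GATA4 siRNA and 0.38 with NT siRNA. The receptor FZD7 differed by -0.53, but another FZD7 probe differed by 0.047. Of 21 TGF-beta and BMP genes, 5 were higher and 13 lower. The ligand BMP7 (-0.83) and the feedback inhibitors PMEPA1 (-0.68) and SMAD7 (-0.39) were lower, and BAMBI, a pseudoreceptor (0.56), and SMAD6 (0.44) were higher.

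Oncofetal and imprinted genes had 5 higher and 4 lower of 19. LIN28B, which blocks maturation of let-7 microRNAs, read 6.79, 7.00 and 7.26 in replicates 4 to 6, against 5.60, 5.76 and 6.03 in replicates 1 to 3. Its relative LIN28A differed by 0.09 and was not called, and HMGA2, a let-7 target, differed by 0.38. Of 9 genes of the insulin-like growth factor axis, 4 were higher and 4 lower, with the binding proteins IGFBP1 at 1.09 and IGFBP7 at -0.95. Of 13 hepatocyte transcription factors, 6 were higher and 3 lower, with a median of 0.027 with GATA4 siRNA and 0.16 with NT siRNA. The lowest was NR5A2 (-0.47), while FOXA2 and GATA6 differed by 0.076 and 0.00091 and were not called. RNA silencing genes had 5 higher and 1 lower of 13, and AGO2, the slicer, differed by 0.059, not called. AGO2 differed by -0.15 with GATA4 siRNA and 0.27 with NT siRNA.

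Interferon and antigen presentation genes were mostly lower. Of 17 tested interferon response and MHC class I genes, 2 were called higher and 12 lower (median -0.40). TAP1, a peptide transporter, read 7.23, 7.39 and 7.42 in replicates 4 to 6, against 8.21, 8.31 and 8.43 in replicates 1 to 3. ISG15, an interferon-induced ubiquitin-like protein, read 6.89, 7.12 and 7.22 in replicates 4 to 6, against 7.68, 7.97 and 8.10 in replicates 1 to 3, and B2M, the light chain of MHC class I, differed by -0.36. Of 14 NF-kB and acute phase genes, 2 were higher and 4 lower, with TNFRSF12A, the TWEAK receptor, lowest (-1.18). Hypoxia genes had 7 higher and 9 lower of 26, from ADM (-1.04) to MXI1 (0.51). Iron genes had 4 and 6 of 12, with SLC40A1, the iron exporter, at -0.60. Zinc genes had 4 and 2 of 11, with SLC39A10 at 0.58.

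Markers of the line and of other cells were set beside these values. Of 8 tested hepatocyte and hepatoblast markers, none was called higher and 4 were lower. TTR (transthyretin), APOB, AFP and ALB differed by -0.47, -0.17, -0.15 and -0.12, and APOA1, SERPINA1 and GPC3 by -0.056, 0.043 and 0.028. This tally turned with the scaling. With the arrays scaled to equal medians, APOB, AFP and ALB differed by -0.049, -0.060 and -0.084 and were not called, GPC3 was called higher at 0.16, and the median of the list was -0.013, against -0.089 with quantile normalisation. Their summed intensity was 84820 to 91260 in replicates 4 to 6, against 94240 to 97980 in replicates 1 to 3. In bulk RNA fewer cells of a type and less RNA per cell cannot be told apart. DLK1, a further hepatoblast marker, was not detected.

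Of 15 stellate cell and fibroblast markers, 7 were tested, of which COL6A3 and PDGFRA were higher and COL1A2 (-0.68), RGS5 (-1.09), PDGFRB (-0.25), TAGLN and ACTA2 lower. The markers COL3A1, DCN, LUM, POSTN, LRAT, DES and THY1 were detected on no array. Summed intensity of the 15 was 8201 to 9540 in replicates 4 to 6, against 11520 to 13560 in replicates 1 to 3. Of 11 macrophage markers, CD14 (-1.15), CSF1R (-1.07) and CD68 (-0.51) were lower. CD163, detected on no array of replicates 4 to 6, was at least 1.17-fold lower. AIF1 was called higher (0.28), a call lost with median scaling, with the authors' values and in most other processing alternatives. MARCO, TYROBP, C1QA, C1QB and LYZ were never detected. Sums of the 11 were 2658 to 3037 in replicates 4 to 6, against 3227 to 3798 in replicates 1 to 3. The lymphocyte marker CD3D was lower (-0.95), and CD3E, CD2, MS4A1, NKG7 and PTPRC were never detected; the sums were 1315 to 1483 in replicates 4 to 6, against 2491 to 2673 in replicates 1 to 3. Cholangiocyte markers had 1 higher and 2 lower of 6, and sums of 20890 to 22190 in replicates 4 to 6, against 21440 to 23470 in replicates 1 to 3. The 1 endothelial marker tested, PECAM1, differed by 0.014 and was not called, with sums of 623.3 to 710.6 in replicates 4 to 6, against 585.9 to 749.0 in replicates 1 to 3, and no erythroid marker was detected (165.7 to 206.3 in replicates 4 to 6, against 182.6 to 200.1 in replicates 1 to 3). The part of other cells in the differences was not tested beyond these values.

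Genes often used as references also moved with the scaling. GAPDH differed by 0.055 and ACTB by -0.099 (SE 0.036), and of 14 such genes 2 were called higher and 4 lower. With the arrays scaled to equal medians GAPDH was called higher at 0.18, and ACTB differed by -0.018 and was not called. HPRT1 and GUSB were higher by 0.31 and 0.39.

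The test that the way of finding the sets leaves free is whether the difference between the sets depended on the siRNA. No gene passed in limma's interaction test at an adjusted p under 0.05 (0%), and 901 genes (8.84%) had an unadjusted p under 0.05. The 5 genes with the lowest p are described next. TM4SF4, a tetraspanin-like protein of liver and intestine, read 8.00, 7.80 and 7.97 with GATA4 siRNA and 8.52, 8.52 and 8.53 with NT siRNA in replicates 4 to 6, against 8.10, 8.25 and 8.11 with GATA4 siRNA and 7.98, 8.17 and 8.07 with NT siRNA in replicates 1 to 3. Its set difference was -0.23 with GATA4 siRNA and 0.45 with NT siRNA, an interaction of -0.68 (SE 0.12, limma adjusted p = 0.0599).

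DEPP1, a FOXO target, read 6.94, 6.57 and 6.57 with GATA4 siRNA and 7.50, 7.48 and 7.69 with NT siRNA in replicates 4 to 6, against 6.21, 6.55 and 6.47 with GATA4 siRNA and 6.52, 6.20 and 6.28 with NT siRNA in replicates 1 to 3. The NT siRNA arrays of replicates 4 to 6 stood above the other 9 arrays, and the interaction was -0.95 (SE 0.19, limma adjusted p = 0.189). It passed without background correction and with the authors' values (limma adjusted p 0.0409 in both), and its adjusted p ran 0.0268 to 0.451 over the settings and left-out arrays tried. LFNG was higher in replicates 4 to 6 by 1.18 with GATA4 siRNA and 1.78 with NT siRNA (interaction -0.60, limma adjusted p = 0.266). UFSP2, a protease of the UFM1 modifier, differed by -0.32 with GATA4 siRNA and 0.14 with NT siRNA (interaction -0.46, limma adjusted p = 0.266). CEMIP2, described as a cell surface hyaluronidase, differed by -0.77 with GATA4 siRNA and -0.37 with NT siRNA (interaction -0.41, limma adjusted p = 0.266). TM4SF4 passed the threshold with robust variance estimates, with means over probes, without background correction and with the authors' values (adjusted p 0.0425, 0.0445, 0.0409 and 0.0409), and its adjusted p ran 0.0268 to 0.439 over the settings and left-out arrays tried. Without GATA4 siRNA replicate 4, 6 genes passed: DSC2, DEPP1, TM4SF4, HINT3, ANXA4 and CEMIP2, of which DSC2, HINT3 and ANXA4 are named after their values were seen.

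**Figure D5:**
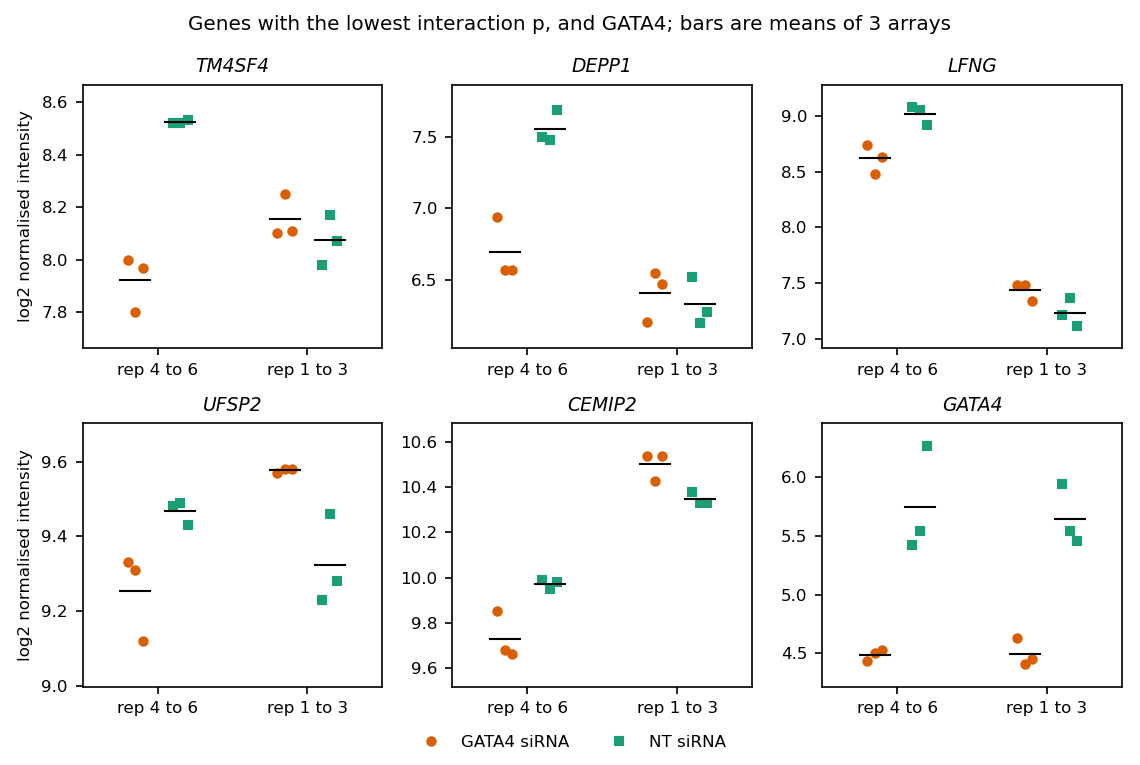
Log2 normalised intensity on each array of the 5 genes with the lowest interaction p and of GATA4, with replicates 4 to 6 left of replicates 1 to 3, GATA4 siRNA as circles and NT siRNA as squares; bars are means of 3 arrays. In TM4SF4 and DEPP1 the siRNA groups lay farther apart in replicates 4 to 6, and in GATA4 the siRNA groups were apart in both sets.

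The brightness of a probe bore on how many genes were called. In 4 equal bins of genes, dimmest first, the share called was 34.8%, 51%, 57.3% and 61.2%, and the numbers at least 2-fold higher were 17, 19, 7 and 2, while those at least 2-fold lower were 42, 38, 23 and 12. More than 1 probe was tested for 1394 called genes: in 1222 every probe pointed the same way, and in 38 a further probe pointed the opposite way at a limma p under 0.05. At the edge of the detection limit, 137 genes were detected on exactly 6 arrays and had a median difference of -0.052. The 138 genes just outside, on 5 arrays, had a median of 0.00011. Regardless of sign, the median size of a difference was 0.41 on exactly 6 arrays and 0.19 on 5 arrays, against 0.17 over all genes. The detection rule admits genes through the set where they are high, so differences at this edge are enlarged by the choice. Detection fell entirely with the sets in 45 genes, of which 15 were detected on all arrays of replicates 4 to 6 alone and 30 on all arrays of replicates 1 to 3 alone.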

How the data were processed

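Biotin-labelled total RNA of 12 HUH6 samples was run on Illumina HT-12 v4 expression beadchips. The authors' deposited scanner table gives, for every probe, a linear intensity on each array with a detection p-value in the next column, per the file headers. It was exported from GenomeStudio, per the submitters' processing notes (version not stated), and with a minimum of 82.2 had no background subtracted. The authors also deposited log2 values after a normalisation that the labels do not describe; these differ by at most 0.0141 from quantile-normalised log2 signals and served as an alternative.

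Background was estimated from the detection p-values and removed, an offset of 16 added, and the arrays quantile normalised on the log2 scale (neqc, limma 3.58.1, R 4.3.3). Gene symbols came from the platform's annotation, brought up to date with RefSeq on GRCh38.p14: 30112 of 48106 probes had 1 symbol, 8 several and 17986 none. The brightest of the detected probes of a gene stood for it (13201 probes, 10196 genes). The fit used lmFit with terms for set and siRNA and eBayes with an intensity trend. The interaction test was two-sided, its p-values adjusted by Benjamini-Hochberg across the 10196 genes. Precision is limited by how few arrays there are. The code was tested on simulated data.

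The sets, the 55 gene lists and the rule for named genes were chosen with earlier results of these data known. The rule names the 20 largest called differences each way among genes whose sets are clear of each other in both siRNA groups, up to 4 called members each way per list, marker and reference genes and the 5 lowest interaction p-values; other list members were named with their values known. Same-numbered samples of the siRNA groups correlated 0.548 to 0.604 about group means and -0.0604 to 0.0119 about the means of group and set, so the numbers did not pair samples within sets. Promoters are from RefSeq, 250 bases before annotated starts; TAGLN and CCN1 were among genes not matched.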

Additional observations from a re-analysis of the deposited data

Results flagged for a closer look

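Among 242 genes named in the text, 1 array stood apart from the other 5 of its set in 21 of 484 sets of 6 values, where chance gives about 1 in 20. None of these results was weighed further.

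In replicates 4 to 6, CD14 read 6.42 in NT siRNA replicate 6, below the 6.75 to 6.94 of the other 5 arrays. HDGFL3 read 6.81 in GATA4 siRNA replicate 5, above the 6.42 to 6.54 of the other 5 arrays. MAP1LC3B read 9.14 in GATA4 siRNA replicate 6, above the 8.73 to 8.86 of the other 5 arrays. NPPB read 8.24 in GATA4 siRNA replicate 5, below the 8.68 to 8.92 of the other 5 arrays. SNORA12 read 6.22 in GATA4 siRNA replicate 6, below the 7.47 to 7.91 of the other 5 arrays. SNORA12 is a small nucleolar RNA, NPPB a natriuretic peptide and MAP1LC3B an autophagosome protein. ADM read 9.95 in NT siRNA replicate 6, above the 9.76 to 9.82 of the other 5 arrays. ALDH3A2 read 9.99 in NT siRNA replicate 4, above the 9.80 to 9.87 of the other 5 arrays. CD163 read 4.93 in NT siRNA replicate 4, above the 4.57 to 4.66 of the other 5 arrays. EBP read 10.23 in GATA4 siRNA replicate 4, below the 10.37 to 10.43 of the other 5 arrays. LIN28A read 11.84 in GATA4 siRNA replicate 4, above the 11.59 to 11.64 of the other 5 arrays. NDUFB6 read 10.32 in NT siRNA replicate 4, above the 10.14 to 10.20 of the other 5 arrays. SERPINA1 read 14.14 in GATA4 siRNA replicate 6, above the 13.79 to 13.91 of the other 5 arrays. SNORA61 read 7.87 in GATA4 siRNA replicate 5, above the 7.58 to 7.68 of the other 5 arrays. TPM1 read 10.28 in GATA4 siRNA replicate 5, below the 10.48 to 10.57 of the other 5 arrays.

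In replicates 1 to 3, APOM read 10.61 in GATA4 siRNA replicate 1, above the 10.21 to 10.34 of the other 5 arrays. BHMT read 5.28 in GATA4 siRNA replicate 2, below the 6.27 to 6.61 of the other 5 arrays. NEK2 read 10.18 in NT siRNA replicate 1, above the 10.03 to 10.09 of the other 5 arrays. NKD1 read 10.39 in GATA4 siRNA replicate 2, above the 10.23 to 10.29 of the other 5 arrays. ORC6 read 13.99 in NT siRNA replicate 1, below the 14.18 to 14.24 of the other 5 arrays. RPL21 read 9.42 in NT siRNA replicate 3, below the 9.59 to 9.67 of the other 5 arrays. RPS16 read 13.85 in GATA4 siRNA replicate 2, below the 14.04 to 14.10 of the other 5 arrays. The low BHMT array is the 1 on which that gene was not detected.

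Signal also appeared in probes outside the genes reported. Of 3138 detected probes without a single gene symbol, 828 were called higher in replicates 4 to 6 and 519 lower in limma's fit, adjusted over these probes alone. Of the 10196 genes tested, 2637 were called higher and 2570 lower. The probes without a single symbol carry no gene name here and enter no list.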

How the results depend on the processing

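Each alternative changed 1 choice: no background correction, the authors' normalised values, median scaling, detection on all 12 arrays, no detection filter, robust or untrended variances, means over probes, array weights, no siRNA term and the replicate block. Over these, counts for the sets on 12 arrays stayed within 1.5 times of 2637 and 2570. With median scaling they were 1958 higher and 2286 lower, and with GATA4 siRNA alone 878 higher and 1195 lower; the cause was not tested. Genes at least 2-fold apart numbered 7 higher and 24 lower without background correction or with the authors' values, in both of which background stays in the signals. Leaving out each array gave 2469 to 2574 higher and 2428 to 2509 lower on the other 11. With NT siRNA alone the ranges were 1552 to 1746 and 1681 to 1777. With GATA4 siRNA alone they were 1297 to 1604 and 1686 to 1894. Interaction calls were 2 without background correction and with the authors' values, 1 with robust variances and 1 with means over probes, otherwise 0, and 0 to 6 with an array left out, the 6 without GATA4 siRNA replicate 4. With the replicate number as a block (correlation -0.0724), 2749 genes were higher and 2648 lower, and the interaction still had 0 calls. Without the detection filter the median of the interstitial matrix list became 0.0049 and that of the mesenchymal list 0.014, since undetected members entered. Of the other values of list medians under a setting, 42 moved beyond the spread between arrays, keeping their sign, and 1152 moved by less or not at all. The latter include values that could not move. Robust or untrended variances, no siRNA term and the replicate block change no difference. Among the medians given above, that of YAP and TEAD targets (-0.52) was -0.34 without background correction or with the authors' values and -0.30 without the detection filter. Without that filter those of epithelial junctions, coagulation and interferon response genes were -0.086, 0.17 and -0.15. That of cytosolic ribosomal proteins (0.11) was 0.20 with median scaling, and that of the interstitial matrix (-0.15) was -0.017 with detection on all 12 arrays. Without background correction those of interstitial matrix and small noncoding RNAs were -0.074 and 0.14. The DSC2 difference, -0.45 with its brightest probe, was 0.071 with means over its probes. Of the values of named genes under these settings, 5470 kept their call and direction, 64 lost the call, 4 gained it and 1 turned. Signal over background limits the dimmest genes, of which 34.8% were called, against 61.2% in the brightest bin.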

Other observations

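Genes on chromosome 2, a grouping noticed in these data, lay higher in replicates 4 to 6 than those of the other chromosomes. Of 665 tested genes on it, 35.3% were called higher and 19.8% lower, with a median difference of 0.081. The medians of the other autosomes and X ran -0.025 to 0.035. The chromosome 2 median was 0.078 among GATA4 siRNA arrays and 0.077 among NT siRNA arrays. Cut into 17 blocks along the chromosome, 15 had a median above that of all genes. Such a count is not given for the other chromosomes. Over the processing alternatives and left-out arrays it stayed the highest of the chromosomes, at 0.0581 to 0.087. Robust or untrended variances, no siRNA term and the replicate block leave the differences unchanged, so they could not alter this median. Without the detection filter it was still taken over the tested genes alone, and stayed at 0.0808. Among the 40 genes named for large differences by the rule given above, COL6A3, SLC30A3, ACKR3 and OSR1 on the higher side and LRP2 on the lower are on chromosome 2. That chromosome held 665 of the 10196 genes tested. Values of this kind were not tested, since the sets were found from these arrays.

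By class of transcript, 15 of 122 long noncoding RNA genes were called higher and 37 lower (median -0.076), against 2557 and 2494 of 9832 protein-coding genes (median 0.014). Across 10191 genes, gene length and difference had a Spearman rho of -0.0989, given as a description, since genes are not independent.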
